A study of Mus musculus with 10 samples.

Results

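The genes described here carry the names of subunits of the mitochondrial respiratory chain and of the ATP synthase that it drives. They were taken from the gene table by name: symbols beginning with mt-Nd, mt-Co, mt-Cyb, mt-Atp, Ndufa, Ndufb, Ndufc, Ndufs, Ndufv, Uqcr, Cox4i, Cox5, Cox6, Cox7, Cox8 or Atp5, together with Sdha, Sdhb, Sdhc, Sdhd and Cyc1, without pseudogenes marked -ps and without the Ndufaf assembly factors. This gave 102 of 54151 symbols, of which 12 lie in the mitochondrial genome and 90 in the nuclear genome. The table spells the cytochrome b gene mt-Cytb, which the listed beginning mt-Cyb does not match, so it is not counted among the 102 and its values are given beside them.

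The respiratory chain sits in the inner mitochondrial membrane. Complex I (NADH dehydrogenase) and complex II (succinate dehydrogenase) pass electrons to ubiquinone, complex III (the cytochrome bc1 complex) passes them to cytochrome c, and complex IV (cytochrome c oxidase) passes them to oxygen, while complex V (ATP synthase) uses the resulting proton gradient to make ATP. Complex II is encoded in the nucleus alone, and the other complexes join subunits from both genomes. The mitochondrial genome is transcribed as long precursors of each strand that are cut into single mRNAs, whereas each nuclear subunit has its own promoter. In the oviduct epithelium, multiciliated cells use ATP to beat their cilia, and secretory cells make the fluid around the embryo.

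Organoids were raised from the isthmus of the mouse oviduct, and 10 RNA libraries were sequenced. F/F organoids carried floxed Cdc42 alleles with loxP sites around exon 2 and no Cre, PgrKO organoids came from PgrCre/+Cdc42 f/f littermates in which the progesterone receptor gene drives Cre, and for AdKO the virus Ad5-CMV-Cre was given in culture to F/F organoids. Con organoids were kept undifferentiated, and Diff organoids were held for 6 days in 10 nM estrogen (E2) with 1 μM DBZ, which blocks Notch signalling and favours multiciliated cells. All organoids thus carried the floxed allele, and all PgrKO organoids also carried the Cre allele, in both states. There were 2 libraries for each F/F and PgrKO group and 1 for each AdKO group, and neither the labels nor the methods for organoids tell which mice a library came from or how old they were. Libraries are named below by their group and number, and nothing states that equal numbers mark organoids of the same mouse, so the p-values reflect the spread among these libraries alone, which may be technical.

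Levels are given as FPKM, fragments scaled to exon length and to a depth factor of each library. Behind them stood 11745729 to 17331800 reads per library. The depth factor was 0.919 (PgrKO_Diff 1) to 1.06 (F/F_Con 1) times these reads, and the part of this in the levels was not tested. The test was limma on log2(FPKM + 1), fitted to all libraries at once, for the 15817 genes that averaged 1 FPKM or more in any group. A gene was called at a Benjamini-Hochberg adjusted p under 0.05 over all of these genes, with the single AdKO libraries taken to be as variable as the rest. Of the 9 epithelial markers, all reached 1 FPKM in at least 1 group and together gave 2036 to 3666 FPKM. The 13 leukocyte markers gave 999 FPKM in PgrKO_Con 2 and 1348 in PgrKO_Diff 2 against 71.4 to 358 in the other libraries, and the 10 fibroblast markers gave 143 to 423 FPKM in PgrKO and 3.91 to 64.3 in the rest. Cdc42 itself ranged from 81.6 FPKM in AdKO_Con to 134 in PgrKO_Diff 2, and a value for the whole gene does not show the loss of exon 2. In such bulk libraries, fewer cells of a type and less RNA per cell cannot be told apart.

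All 12 mitochondrial-encoded members and 80 of the 90 nuclear members passed the filter on low values. Complex I had 41 nuclear members (37 tested), complex II had 4 (all tested), complex III had 9 (all tested), complex IV had 19 (13 tested) and complex V had 17 (all tested). The 10 below the filter were Ndufa4l2, Ndufa11b, Ndufb4c, Ndufs6b, Cox4i2, Cox6a2, Cox6c2, Cox7b2, Cox8b and Cox8c. Of these, Cox7b2, Cox8b and Cox8c were listed at 0 in every library. Ndufa11b, Ndufb4c and Ndufs6b are annotated as processed pseudogenes and are counted with complex I by name only. Several of the 10 are copies bound to a tissue or a condition: Cox6a2 and Cox8b belong to heart and skeletal muscle, Cox7b2 and Cox8c to the testis, and Cox4i2 and Ndufa4l2 are known for their response to low oxygen.

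The mitochondrial-encoded members fell into a high and a low class in every library. mt-Co1, the catalytic subunit of complex IV, averaged 9858 FPKM, and the complex I subunits mt-Nd1, mt-Nd6, mt-Nd5, mt-Nd2 and mt-Nd4 averaged 4203, 2599, 2372, 2102 and 1676 FPKM. mt-Cytb, the only mitochondrial-encoded subunit of complex III, averaged 4951 FPKM. The other complex IV subunits mt-Co2 and mt-Co3 averaged 51.3 and 23.3 FPKM, the complex V subunits mt-Atp6 and mt-Atp8 averaged 34.4 and 13.6, and the complex I subunits mt-Nd4l and mt-Nd3 averaged 8.00 and 7.94. The mean level of mt-Co1 was thus 192 times that of mt-Co2, although both are cut from precursors of the same strand.

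**Figure D1:**
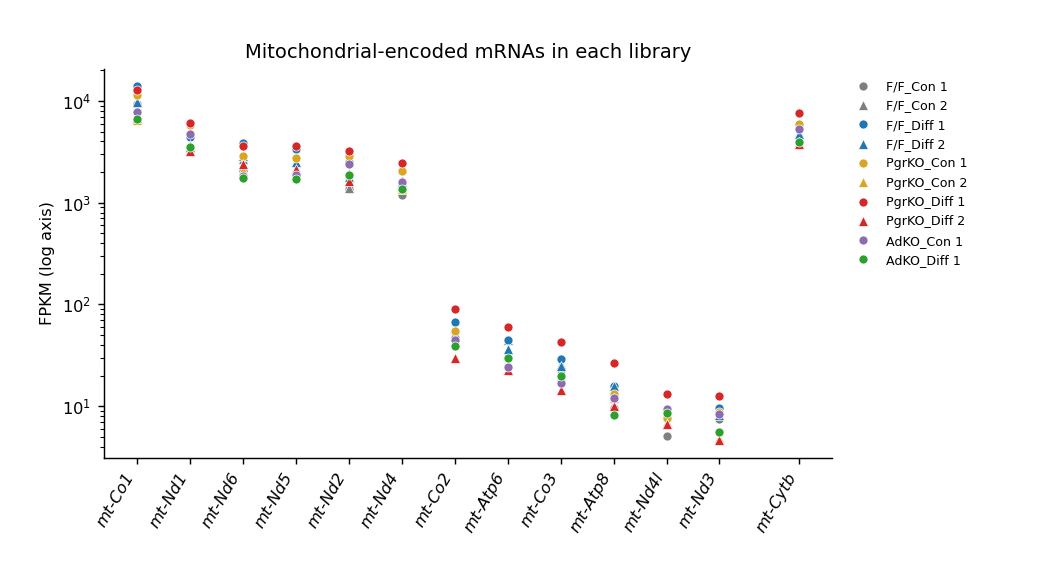
FPKM (log axis) of the 12 mitochondrial-encoded members and of mt-Cytb, with 1 point per library, circles for replicate 1 and triangles for replicate 2. The 6 genes of the high class averaged 1676 to 9858 FPKM, and the 6 of the low class averaged 7.94 to 51.3 FPKM.

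Of the 6 genes of the low class, 5 shared nearly all of their sequence with a copy of mitochondrial DNA in the nuclear genome. On chromosome 1 of mm10, between bases 24611535 and 24616197, GENCODE M21 annotates 7 pseudogenes side by side that match mitochondrial mRNAs at 99% identity or more over at least 150 bases. These copies covered 99.6% of mt-Co2 (Gm28661), 99.6% of mt-Atp6 (Gm10925), 99.9% of mt-Co3 (Gm28437), 99.1% of mt-Nd3 (Gm28438) and 294 of the 297 bases of mt-Nd4l (Gm10222). They covered only 63.6% of mt-Nd4 (Gm28439) and 31.3% of mt-Co1 (Gm29216), which leaves 502 and 1062 bases without such a match. No annotated copy was found for mt-Atp8, which lies between mt-Co2 and mt-Atp6 in the mitochondrial genome. The copies of mt-Co2 (chr1:24614885-24615565) and mt-Atp6 (chr1:24613974-24614651) are neighbours on chromosome 1. The bases between these copies were not compared with mt-Atp8, since only annotated transcripts were searched. The closest matches of mt-Nd2, mt-Nd5, mt-Nd6 and mt-Cytb were between 92.9% and 96.7% identical, and none was found for mt-Nd1.

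The following stretches are shown because they carry this contrast. Each holds 120 bases, read 5′ to 3′ from the mRNA and from the annotated copy, with the bases that differ between the pair in capitals. The mt-Nd3 stretch covers positions 1 to 120 of the gene (chrM:9459-9806) and differs from Gm28438 (chr1:24612775-24613119) at a single base, T3C, counted from 1 at the first base of the mRNA.
mt-Nd3: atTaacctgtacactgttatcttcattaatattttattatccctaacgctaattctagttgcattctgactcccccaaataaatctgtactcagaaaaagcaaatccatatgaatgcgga
Gm28438: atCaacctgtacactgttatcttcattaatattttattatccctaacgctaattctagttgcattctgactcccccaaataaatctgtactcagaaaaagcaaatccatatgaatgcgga

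Over positions 1 to 120 of mt-Co2 (chrM:7013-7696), the copy Gm28661 (chr1:24614885-24615565) has the same bases, so that 1 line stands for both. A read from this stretch fits both places equally well.
mt-Co2 and Gm28661: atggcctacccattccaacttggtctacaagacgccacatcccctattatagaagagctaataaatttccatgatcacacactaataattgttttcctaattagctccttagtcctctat

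By contrast, mt-Cytb (chrM:14145-15288), a gene with a high level, differs from its closest annotated match Gm11410 (chr4:80003989-80005131) at 7 bases within positions 2 to 121.
mt-Cytb: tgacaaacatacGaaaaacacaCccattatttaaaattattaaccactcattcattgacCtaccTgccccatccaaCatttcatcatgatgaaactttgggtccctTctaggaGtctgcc
Gm11410: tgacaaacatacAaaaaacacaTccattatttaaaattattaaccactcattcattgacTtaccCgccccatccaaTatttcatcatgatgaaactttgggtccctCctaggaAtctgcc

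The copies on chromosome 1 were listed at levels like those of the low class. Gm28661 averaged 52.7 FPKM against 51.3 for mt-Co2, Gm10925 averaged 48.3 against 34.4 for mt-Atp6, Gm28437 averaged 21.2 against 23.3 for mt-Co3, and Gm10222 averaged 8.50 against 8.00 for mt-Nd4l. Gm28438 stood lower, at 3.92 FPKM against 7.94 for mt-Nd3. Across the 10 libraries, log2 levels of mt-Co2 and Gm28661 correlated with r = 0.986, the highest of the 7 pairs. The lowest was r = 0.668 for mt-Nd4 and Gm28439, and mt-Nd3 and Gm28438 had r = 0.697. These values describe points that share library and depth. The match of mt-Cytb, Gm11410, averaged 0.00549 FPKM. How reads that fit several places were treated is not given in the sources used here, so the levels of mt-Co2, mt-Co3, mt-Atp6, mt-Nd3 and mt-Nd4l are uncertain, and the part of shared sequence in them was not tested. The level of mt-Atp8 is uncertain too. It rested on 20 to 86 reads per library, the gene overlaps mt-Atp6, and copies of it without an annotation were not searched for. mt-Nd6 is the only mitochondrial-encoded member on the minus strand, and whether counting used the strand is not given either.

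Differentiation of F/F organoids did not move any mitochondrial-encoded member past the test. mt-Co1 was at 9272 and 13578 FPKM before (F/F_Con) and at 13927 and 9788 after differentiation (F/F_Diff). The groups overlapped, and the log2 fold change was 0.06 (standard error 1.11, adjusted p = 0.988 from limma). mt-Nd2, a core complex I subunit, was at 1360 and 1395 FPKM before (F/F_Con) and at 2504 and 1775 after differentiation (F/F_Diff). Here the groups did not overlap, yet the log2 fold change of 0.61 was close to its standard error of 0.55 (adjusted p = 0.480 from limma).

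All 12 fold changes were above 0, with a median of 0.28, against 7531 of all 15817 genes above 0. The groups did not overlap for 5 of the 12 (mt-Nd2, mt-Nd5, mt-Nd6, mt-Nd4l and mt-Atp8), where 32.2% of all genes were higher without overlap. Without F/F_Con 1 the median was 0.09, without F/F_Diff 1 it was 0.10 and without F/F_Con 2 it was 0.49. For the 6 genes of the high class, the error in the fit exceeded the genes' own spread, and for the 6 of the low class it was smaller. For mt-Co1 the standard error was 1.11, where its spread between replicates alone gives 0.507, and without the trend in the prior variance the smallest adjusted p of a mitochondrial-encoded member in any comparison was 0.185 (limma, AdKO_Diff against F/F_Diff). Mitochondrial genes as a whole took 3.16% and 4.08% (F/F_Con), 4.80% and 3.49% (F/F_Diff), 4.11% and 2.80% (PgrKO_Con), 4.63% and 2.75% (PgrKO_Diff), 3.23% (AdKO_Con) and 2.69% (AdKO_Diff) of the reads. The shares of the F/F and PgrKO groups overlapped one another, and both AdKO shares lay within the PgrKO range or just below it.

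Among the nuclear members, subunits of complex IV and complex V led the order of levels per length. Cox8a, a small structural subunit of complex IV, had the highest mean at 247 FPKM, followed by the ATP synthase alpha subunit Atp5a1 at 201, Cox4i1, the common form of a regulatory complex IV subunit, at 196, the ATP synthase beta subunit Atp5b at 195 and Cox6a1 at 179. Cox8a was at 187 and 261 FPKM (F/F_Con), 218 and 260 (F/F_Diff), 260 and 220 (PgrKO_Con), 337 and 136 (PgrKO_Diff), 288 (AdKO_Con) and 302 (AdKO_Diff). The PgrKO_Diff libraries thus held both its highest and its lowest value. The ranges of the 5 genes over the libraries overlapped one another.

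Between the libraries of 1 group, the nuclear members moved together. PgrKO_Diff 2 was lower than PgrKO_Diff 1 for all 80 nuclear members tested, with a median difference of -0.89 on the log2 scale, and for all 12 mitochondrial-encoded members, with a median of -0.94. Over all genes tested, 51.1% were lower in that library, with a median of -0.01. PgrKO_Con 2 was lower than PgrKO_Con 1 for 77 of the 80 (median -0.29), F/F_Con 2 was higher than F/F_Con 1 for 77 of the 80 (median 0.28), and F/F_Diff 2 was higher than F/F_Diff 1 for 62 of the 80 (median 0.10).

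Every complex followed this pattern, although not to the same depth. The median difference between PgrKO_Diff 2 and PgrKO_Diff 1 was -0.89 over the 37 nuclear members of complex I, -0.57 over the 4 of complex II, -0.97 over the 9 of complex III, -1.07 over the 13 of complex IV and -0.86 over the 17 of complex V. PgrKO_Diff 2 held the lowest value of 61 of the 80 nuclear members and PgrKO_Diff 1 the highest of 40. Summed FPKM of all nuclear members was 3472 and 4446 (F/F_Con), 3696 and 4075 (F/F_Diff), 4270 and 3411 (PgrKO_Con), 5146 and 2641 (PgrKO_Diff), 4446 (AdKO_Con) and 4537 (AdKO_Diff). The libraries of PgrKO_Diff stood on either side of all the others.

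**Figure D2:**
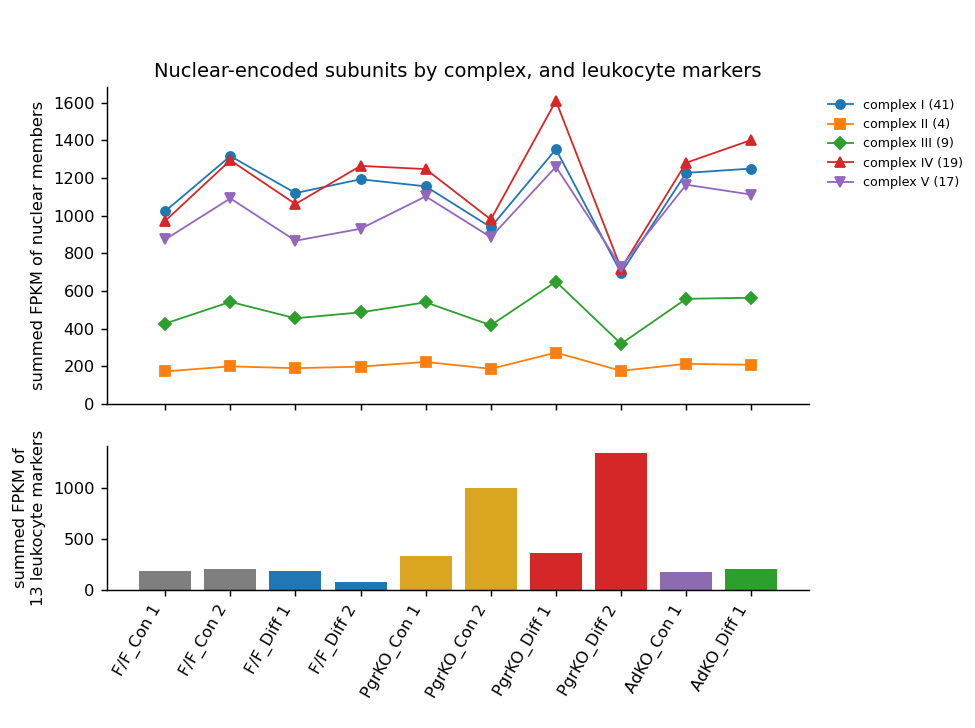
Summed FPKM of the nuclear members of each complex (upper panel, number of genes in parentheses) and of 13 leukocyte markers (lower panel) in each library. Complexes I, III, IV and V peak in PgrKO_Diff 1 and are lowest in PgrKO_Diff 2, and the leukocyte markers are highest in PgrKO_Diff 2 and PgrKO_Con 2.

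Markers of several other cell types and transcript length moved with the difference between the PgrKO_Diff libraries. From PgrKO_Diff 1 to PgrKO_Diff 2, the sum of the fibroblast markers went from 143 to 423 FPKM. That of 8 endothelial markers went from 10.1 to 23.6 and that of 10 muscle markers from 7.40 to 15.1. Not all of these lists rose from PgrKO_Con 1 to PgrKO_Con 2. There the fibroblast sum was nearly level, at 185 and 182 FPKM. The endothelial sum fell from 36.8 to 31.4, and the muscle sum rose from 17.975 to 24.42. The leukocyte markers summed to 358 FPKM in PgrKO_Diff 1 and 1348 in PgrKO_Diff 2, and to 331 and 999 in PgrKO_Con 1 and 2. Of that list, 10 of 13 reached 1 FPKM in at least 1 group, and Lyz2, a lysozyme of macrophages, was at 78.2 FPKM in PgrKO_Diff 1 and 874 in PgrKO_Diff 2, whereas Cd14, which leads the list in PgrKO_Diff 1, was at 259 and 173. Nuclear members are short, with a median of 1675 exon bases against 3691 over all genes tested. For the 12 members of up to 800 bases, the median difference between PgrKO_Diff 2 and PgrKO_Diff 1 was -1.29, where all 1777 tested genes of that length had -0.09. For the 4 members over 5000 bases it was -0.25, where all 5499 genes of that length had 0.06. The part of RNA from these cell types and of length in the lower values was not tested.

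Other mitochondrial genes shifted less between these libraries. The median difference between PgrKO_Diff 2 and PgrKO_Diff 1 was -0.48 over 77 genes of the mitochondrial ribosome (76 lower), -0.42 over 51 assembly factors (48 lower), -0.38 over 25 genes of protein import (21 lower) and -0.31 over 19 genes of the TCA cycle (16 lower). It was -0.11 over 27 genes that copy and transcribe mitochondrial DNA (18 lower) and 0.20 over 13 nuclear regulators of mitochondrial genes (4 lower). These differences are between libraries of 1 group and were not tested.

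For the differentiation of F/F organoids, limma called none of the 92 members tested, while 12.4% of all genes were called higher and 6.89% lower. At an unadjusted p under 0.05 there were 4 of the 92 members, against 5534 of all 15817 genes (limma). A voom fit on the recovered reads also called no member. The median log2 fold change was -0.06 over the 80 nuclear members and -0.02 over all genes. The nuclear median was 0.12 without F/F_Con 2 and 0.02 without F/F_Diff 1. The libraries did not overlap for 23 members that were higher in F/F_Diff and 23 that were lower, each 25% of the members, against 32.2% higher and 34.4% lower over all genes. In the same comparison, 9 of 12 markers of multiciliated cells were called higher, and their sum went from 356 and 316 FPKM in F/F_Con to 1480 and 1691 in F/F_Diff.

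Named here after their values were seen, the nuclear members furthest from 0 were Cox7a1, Ndufa1, Cox7a2l and Atp5s. Ndufa1, an accessory complex I subunit on the X chromosome, was at 35.1 and 38.9 FPKM before (F/F_Con) and at 64.8 and 81.5 after differentiation (F/F_Diff). Its groups stood apart, but the log2 fold change of 0.96 (standard error 0.39) had an adjusted p = 0.140 (limma). Atp5s, a coupling factor linked to ATP synthase, was at 4.77 and 6.37 FPKM before (F/F_Con) and at 11.1 and 10.6 after differentiation (F/F_Diff), with a log2 fold change of 0.86 and adjusted p = 0.115 (limma). Cox7a1, the form of heart and skeletal muscle, was at 0.627 and 0.270 FPKM before (F/F_Con) and at 2.94 and 1.96 after differentiation (F/F_Diff), on 2 to 26 reads per library over the series (log2 fold change 1.25, adjusted p = 0.154 from limma).

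Cox7a2l, which helps to assemble supercomplexes of the chain, pointed the other way, at 105 and 169 FPKM before and 74.2 and 66.0 after differentiation (log2 fold change -0.92, adjusted p = 0.229 from limma). It shares 201 bases with the processed copy Gm6969 on chromosome 12 without a mismatch. That copy was at 50.3 and 108 FPKM before (F/F_Con) and at 35.2 and 118 after differentiation (F/F_Diff), so that the split between gene and copy differed from library to library.

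In PgrKO organoids, differentiation moved no member and no other gene past the test, with 0% of all genes called in either direction. The fit did not pair libraries, although deviations of equal-numbered PgrKO_Con and PgrKO_Diff libraries correlated over all genes with r = 0.528. A block of the replicate number, which has the same effect in all groups, called no gene either. No member had an unadjusted p under 0.05, against 1179 of all 15817 genes (limma), and voom called none. The nuclear median was -0.09 and the mitochondrial-encoded median was 0.29, against 0.01 over all genes. Both medians turned with the library left out, to -0.52 and -0.29 without PgrKO_Diff 1 and to 0.33 and 0.75 without PgrKO_Diff 2. The nuclear median was 0.06 without PgrKO_Con 1, and the mitochondrial-encoded one was -0.03 without PgrKO_Con 2. Only Cox6b2 (lower in PgrKO_Diff) had groups that did not overlap, which is 0% of the members higher and 1.09% lower, against 18.9% and 16.4% of all genes. For nuclear members the wide gap between the libraries of PgrKO_Diff lay on both sides of PgrKO_Con. The difference between the PgrKO and the F/F response was called for no member, while 4.41% of all genes were called by limma. At an unadjusted p under 0.05 there was no member, against 3570 of all 15817 genes. Here voom called 0 of all 15782 genes in its fit, members included.

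**Figure D3:**
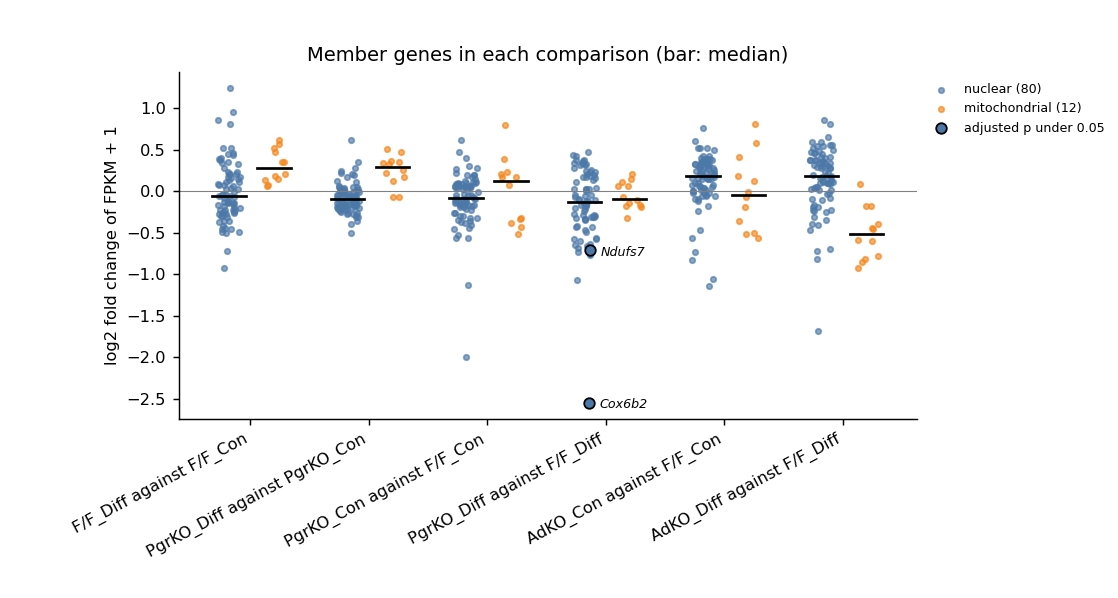
Log2 fold change of FPKM + 1 for each of the 80 nuclear (blue) and 12 mitochondrial-encoded (orange) members tested, in 6 comparisons, with bars at the medians and black rings around members with an adjusted p under 0.05 (limma). Only Cox6b2 and Ndufs7 in PgrKO_Diff against F/F_Diff are ringed.

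Between undifferentiated PgrKO and F/F organoids, limma called no member, against 0.620% of all genes, and voom called none. Unadjusted p-values were under 0.05 for 2 members, against 3461 of all 15817 genes (limma). The groups did not overlap for 6 members that were higher in PgrKO_Con (6.52%, with 28.2% over all genes) and for 15 that were lower (16.3%, with 28.7% over all genes). The median was -0.08 over nuclear and 0.12 over mitochondrial-encoded members. The nuclear median was 0.09 without PgrKO_Con 2 and 0.05 without F/F_Con 2, and the mitochondrial-encoded one was -0.15 without PgrKO_Con 1 and -0.07 without F/F_Con 1, so both directions turned with the library left out.

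Differentiated PgrKO organoids had 2 members below differentiated F/F organoids, Cox6b2 and Ndufs7, and none above. That is 2 of 92, against 15.4% of all genes called lower and 11.7% called higher. At an unadjusted p under 0.05 there were 7 members, against 6458 of all 15817 genes (limma). The groups did not overlap for 15 members that were lower (16.3%, with 30.0% over all genes) and 7 that were higher (7.61%, with 35.8% over all genes). The median was -0.13 over nuclear and -0.09 over mitochondrial-encoded members, against 0.07 over all genes. Without F/F_Diff 1 the mitochondrial-encoded median was 0.05, without PgrKO_Diff 1 it was -0.54 and without PgrKO_Diff 2 it was 0.57. Its direction thus turned with the library left out. All 12 multiciliated markers were called lower, from a sum of 1480 and 1691 FPKM in F/F_Diff to 97.8 and 100.3 in PgrKO_Diff, and 7 of 10 fibroblast markers were called higher. The part of this cell makeup in the values of Cox6b2 and Ndufs7 was not tested.

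Cox6b2, the testis form of a subunit at the contact face of the complex IV dimer, was the member that differed most between genotypes. It lies on chromosome 7 of mm10 from 4751792 to 4753094 on the minus strand. Its level was 7.87 and 9.31 FPKM (F/F_Con), 7.71 and 16.2 (F/F_Diff), 1.52 and 1.27 (PgrKO_Con), 1.19 and 1.00 (PgrKO_Diff), 3.58 (AdKO_Con) and 2.82 (AdKO_Diff), on 13 to 291 reads per library. Every F/F library was above both AdKO libraries, and these were above every PgrKO library. The log2 fold change was -2.55 with a standard error of 0.32 (limma, adjusted p = 0.00429) in PgrKO_Diff against F/F_Diff and -2.00 (adjusted p = 0.0579 from limma) in PgrKO_Con against F/F_Con. Without both PgrKO libraries numbered 2, the first was -2.48 with adjusted p = 0.0513 (limma).

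The other copy of this subunit was not called in any comparison. Cox6b1, the form found in most tissues, was at 135 and 170 FPKM (F/F_Con), 140 and 161 (F/F_Diff), 172 and 143 (PgrKO_Con), 219 and 83.5 (PgrKO_Diff), 194 (AdKO_Con) and 220 (AdKO_Diff). Its levels overlapped between the genotypes, and they were the higher ones in every library.

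Ndufs7, a core complex I subunit that holds an iron-sulfur cluster, lies on chromosome 10 from 80249121 to 80256794. It was at 22.0 and 26.1 FPKM (F/F_Con), 37.9 and 31.8 (F/F_Diff), 24.0 and 20.0 (PgrKO_Con), 24.3 and 17.9 (PgrKO_Diff), 23.0 (AdKO_Con) and 29.1 (AdKO_Diff). The F/F_Diff libraries were the highest of all. The log2 fold change between PgrKO_Diff and F/F_Diff was -0.71 with a standard error of 0.20 (limma, adjusted p = 0.0428), close to the threshold. Of the 8 F/F and PgrKO libraries left out in turn, only the fit without PgrKO_Diff 1 kept the call. Without PgrKO_Diff 2 the value was -0.50 with adjusted p = 0.146, and without F/F_Diff 1 it was -0.59 with adjusted p = 0.169 (limma).

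**Figure D4:**
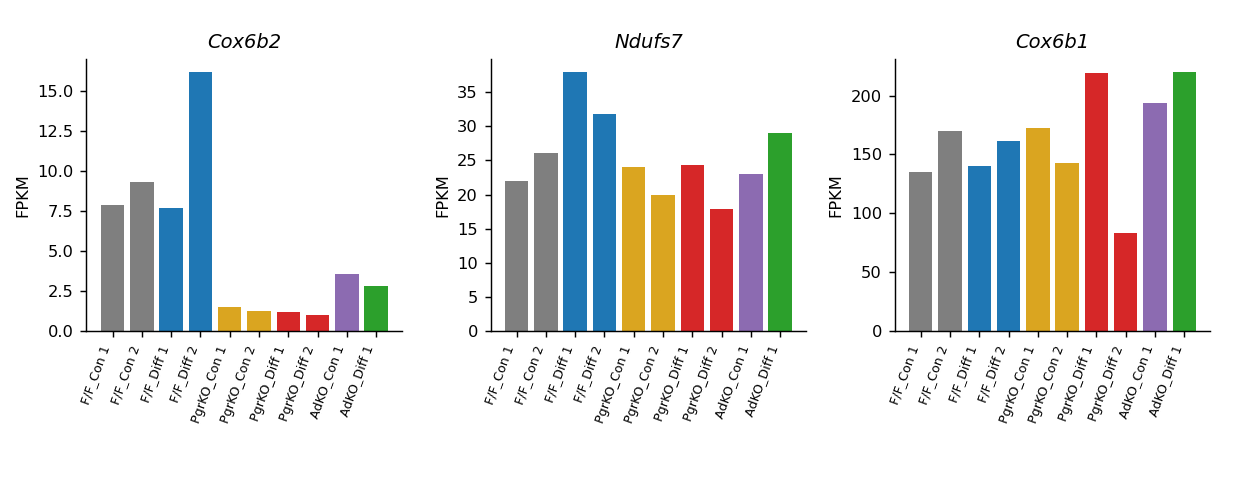
FPKM of Cox6b2, Ndufs7 and Cox6b1 in each library, with bars from 0 and 1 color per group. Cox6b2 reaches 7.71 to 16.2 FPKM in F/F, 2.82 to 3.58 in AdKO and 1.00 to 1.52 in PgrKO, whereas Cox6b1 overlaps between genotypes.

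The count of members in this comparison rested on which PgrKO_Diff library was used. When either was left out, the other stood alone for its group and was assumed to vary like the other groups. Without PgrKO_Diff 1, 20 of the 92 members were called lower and none higher, with a nuclear median of -0.61, where 2086 of all 15999 genes in that fit were called lower and 1842 higher (limma). These were Atp5e, Atp5s, Cox6b2, Cox6c, Cox7a1, Cox7a2, mt-Co3, Ndufa3, Ndufa7, Ndufa12, Ndufab1, Ndufb3, Ndufb5, Ndufb9, Ndufc1, Ndufs3, Ndufs4, Ndufs6, Ndufs7 and Uqcrb. Without PgrKO_Diff 2, Cox6b2 was called lower and the complex I accessory subunit Ndufa5 and Ndufa4 were called higher, with a nuclear median of 0.38, where 1689 of all 15772 genes were called lower and 1066 higher. Ndufa4, first assigned to complex I and now known as a complex IV subunit, was at 59.0 and 57.5 FPKM in F/F_Diff and at 93.3 and 42.3 in PgrKO_Diff. The direction of the nuclear members as a group thus turned with the library left out.

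No complex II member was called in any comparison. Sdha, the flavoprotein of succinate dehydrogenase, was at 48.7 and 53.6 FPKM (F/F_Con), 57.2 and 58.2 (F/F_Diff), 61.7 and 53.6 (PgrKO_Con), 85.0 and 57.5 (PgrKO_Diff), 60.9 (AdKO_Con) and 62.2 (AdKO_Diff). The PgrKO_Diff and F/F_Diff libraries overlapped (log2 fold change 0.27 with a standard error of 0.20, limma, adjusted p = 0.355). In the same comparison the iron-sulfur subunit Sdhb had 0.32, the membrane anchors Sdhc and Sdhd had 0.17 and 0.04, and Cyc1, the heme subunit of complex III, had 0.25, with no call (limma). Their standard errors were 0.18 to 0.26. Ndufs7, with a standard error of 0.20, was called close to the threshold at -0.71, and a gene with a larger error had to change more to be called.

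Paired forms of other subunits showed the common form in every library. Cox4i1 reached 120 to 315 FPKM and Cox4i2 0 to 1.30, Cox6a1 134 to 247 and Cox6a2 0 to 0.106, and Cox8a 136 to 337 with Cox8b and Cox8c listed at 0. Cox7a2 reached 27.8 to 69.4 FPKM and Cox7a1 0.263 to 3.05. Cox7b reached 34.7 to 75.5 with Cox7b2 listed at 0, and Ndufa4 reached 42.3 to 93.3 with Ndufa4l2 at 0 to 1.05. Ndufa4l2 was above 0 in every F/F library (0.510 to 1.05 FPKM), in PgrKO_Con 1 (0.385) and, at 0.0779, in PgrKO_Diff 2, and it was listed at 0 in the other libraries. The genes Atp5g1, Atp5g2 and Atp5g3, which encode the same c subunit of the ATP synthase rotor, averaged 11.5, 37.4 and 90.7 FPKM, and none was called in any comparison (limma).

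Ad-Cre organoids had 1 library in each state. AdKO_Con against F/F_Con gave no called member, against 0.0506% of all genes, and AdKO_Diff against F/F_Diff gave none, against 6.16%, by limma. In the same comparisons voom called 4 and 1 of all 15782 genes, and no member. In both comparisons, the share of members at an unadjusted p under 0.05 was below that of all genes (limma). In AdKO_Diff, the 12 mitochondrial-encoded members had a median of -0.52 against F/F_Diff (11 below 0) and the 80 nuclear members a median of 0.19 (59 above 0), against 0 over all genes. In AdKO_Con the same medians were -0.04 and 0.18, and without F/F_Con 2 the first was 0.10. AdKO_Diff against AdKO_Con, with 1 library on each side, gave no called member and 0% of all genes, and none had an unadjusted p under 0.05. Cox6b2 was again the member with the largest difference in AdKO_Diff, with a log2 fold change of -1.68 (adjusted p = 0.0587 from limma). The comparisons with F/F_Diff share its libraries, so the lower values of Cox6b2 in PgrKO_Diff and AdKO_Diff do not rest on separate controls.

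A second case of shared sequence touched a nuclear member. Of the nuclear members, 13 have a transcript of another gene elsewhere in the genome that matches them at 99% or more over at least 150 bases. Beside the copy of Cox7a2l, the copies closest in level to their member were those of Atp5l, an ATP synthase subunit (Gm10221, 2.47 FPKM on average against 5.22), and of Ndufs5, an accessory complex I subunit on chromosome 4, both chosen here after their values were seen. The processed copy of Ndufs5, BC002163 (chr16:42955631-42955949), averaged 20.9 FPKM against 18.8 for Ndufs5. The stretch of 120 coding bases of Ndufs5 from position 21 to 140, counted from 1 at the first coding base, is shown because it holds both differing bases of the aligned stretch of 319 bases, T81C and A105G, in capitals.
Ndufs5: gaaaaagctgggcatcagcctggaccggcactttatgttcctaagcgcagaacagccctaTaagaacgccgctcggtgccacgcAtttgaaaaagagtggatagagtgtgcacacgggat
BC002163: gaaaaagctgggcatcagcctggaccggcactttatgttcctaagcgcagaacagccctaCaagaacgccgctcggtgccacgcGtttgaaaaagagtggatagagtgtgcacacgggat

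The copy was nearly absent from the PgrKO libraries numbered 1. BC002163 had 2 reads in PgrKO_Con 1 and 3 in PgrKO_Diff 1, against 65 to 155 in the other 8 libraries. In percent of the reads of both genes, the copy took 0.588 and 0.677 in these libraries, 51.6 and 51.2 in PgrKO_Con 2 and PgrKO_Diff 2, 30.1 to 32.7 in F/F and 43.1 and 45.6 in AdKO. Ndufs5 was at 15.9 and 21.1 FPKM (F/F_Con), 25.4 and 25.1 (F/F_Diff), 27.6 and 9.75 (PgrKO_Con), 32.1 and 6.15 (PgrKO_Diff), 10.7 (AdKO_Con) and 13.9 (AdKO_Diff). It was highest where the copy was nearly absent. In reads of both genes together per 1000000 reads of the library, there were 22.8 and 18.2 (PgrKO_Con), 25.6 and 10.8 (PgrKO_Diff), 21.5 and 27.0 (F/F_Con), and 33.3 and 31.2 (F/F_Diff). On this sum both PgrKO_Diff libraries were below both F/F_Diff libraries, whereas in the FPKM of Ndufs5 alone PgrKO_Diff 1 was the highest of all. PgrKO_Diff 2 was the lowest library on both measures. The part of this copy in the level of Ndufs5 was not tested, and the gene was not called in any comparison (limma).

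**Figure D5:**
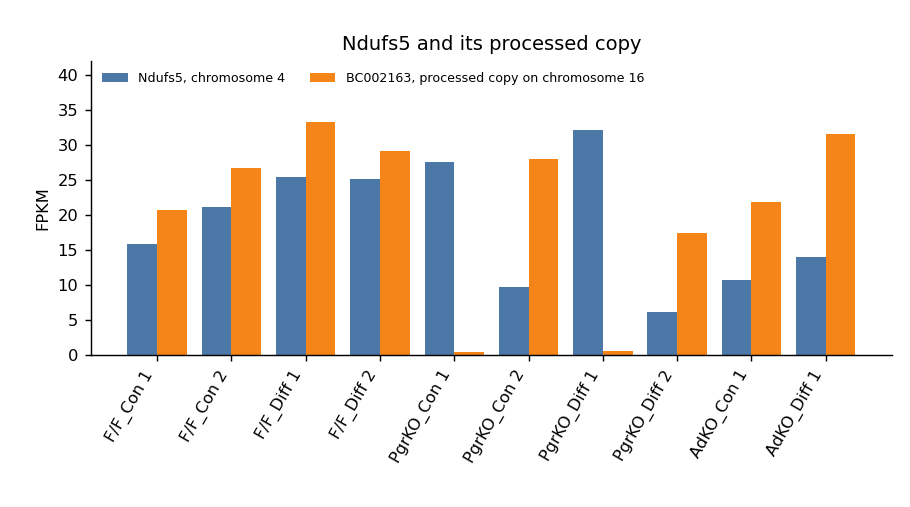
FPKM of Ndufs5 (blue) and of its processed copy BC002163 on chromosome 16 (orange) in each library. The copy is at 0.441 and 0.590 FPKM in PgrKO_Con 1 and PgrKO_Diff 1 and at 17.4 to 33.2 FPKM in the other libraries.

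Promoters of the nuclear members were searched for motifs of factors known to act on respiratory genes. RefSeq promoters (GRCm38.p6), each with 250 bases before and 50 after the start, were found for 69 of the 90, 2 of them matched by an older symbol. On either strand, the NRF1 motif GCGCANGCG occurred in 27.5% of these promoters, against 6.47% of all 27025 promoters and 13.2% of those of tested genes. The ETS/GABP motif CCGGAAG occurred in 21.7% against 9.12% and 17.5%, and the YY1 motif AANATGGCG in 11.6% against 2.51% and 4.99%. The CREB motif TGACGTCA occurred in 5.80% against 1.88% and 3.09%, and the HIF core ACGTG in 26.1% against 19.7% and 25.3%. Any of the NRF1, ETS/GABP or YY1 motifs was present in 50.7% of the members' promoters and in 31.0% of those of tested genes. These shares describe letters, and none was tested.

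The 150 bases before the start of Sdha, Cox6a1 and Cox6b2 are shown because they span this range, with matches to the motifs in capitals. They lie on the minus strand at chr13:74350241-74350390 for Sdha, chr5:115348959-115349108 for Cox6a1 and chr7:4753095-4753244 for Cox6b2. Sdha and Cox6a1 hold NRF1 motifs, and Cox6b2 is among the 19 of 69 members whose promoter holds none of the motifs. Ndufs7, the other called member, has the YY1 motif.
Sdha: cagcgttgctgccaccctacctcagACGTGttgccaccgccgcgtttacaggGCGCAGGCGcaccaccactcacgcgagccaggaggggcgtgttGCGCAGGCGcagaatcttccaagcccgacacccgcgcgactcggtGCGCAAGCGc
Cox6a1: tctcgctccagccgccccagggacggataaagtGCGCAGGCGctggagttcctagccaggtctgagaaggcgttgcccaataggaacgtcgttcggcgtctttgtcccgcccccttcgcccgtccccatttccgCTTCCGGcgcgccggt
Cox6b2: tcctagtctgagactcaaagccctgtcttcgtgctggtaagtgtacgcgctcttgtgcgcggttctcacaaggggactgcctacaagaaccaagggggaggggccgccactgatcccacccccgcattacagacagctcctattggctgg

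Genes that build and serve the chain were counted by list, from lists chosen with earlier results of these data known. Of 51 assembly factors tested, limma called 1 higher in F/F_Diff against F/F_Con, and 2 higher and 8 lower in PgrKO_Diff against F/F_Diff. Ndufaf3, an assembly factor of complex I, changed by 1.46 on the log2 scale (adjusted p = 0.0191 from limma) in the first comparison and by -2.32 (adjusted p = 0.00392 from limma) in the second. Nubpl, which supplies iron-sulfur clusters to complex I, had -1.33 (adjusted p = 0.00845 from limma) in the second. The 2 called higher in the second were Acad9 at 1.71 (adjusted p = 0.0104 from limma) and Coa5 at 0.997 (adjusted p = 0.00416 from limma). Of the 77 mitochondrial ribosomal protein genes, 2 were called higher and 3 lower in F/F_Diff, and 1 higher and 6 lower in PgrKO_Diff against F/F_Diff. Of 27 genes for copying and transcribing mitochondrial DNA, 4 were called higher and 2 lower in the latter comparison, with the polymerase subunits Polg at 0.65 and Polg2 at -1.50. In AdKO_Diff, a single library, against F/F_Diff, Coa5 had a log2 fold change of 0.80 and Polg2 of -1.23. Of the genes in these lists, only Esrrg, described below, was followed in fits with a library left out. How far the other calls rest on PgrKO_Diff 2 was not tested.

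Of 13 nuclear regulators, 1 rose and 1 fell in F/F_Diff, and 3 were higher and 1 lower in PgrKO_Diff against F/F_Diff. Esrrg, an orphan nuclear receptor that acts on mitochondrial genes, rose by 1.02 in F/F_Diff and was lower by a log2 fold change of -1.93 in PgrKO_Diff and of -1.74 in AdKO_Diff, a single library, against F/F_Diff (adjusted p = 0.0464, 0.00555 and 0.0411 from limma). The AdKO_Diff call was lost with the replicate number as a block (adjusted p = 0.0779 from limma) and with voom (adjusted p = 0.0940), and also without any 1 of the F/F or PgrKO_Diff libraries. The call in F/F_Diff was lost without any 1 of the same libraries (adjusted p from 0.0651 to 0.211 from limma) and with voom (adjusted p = 0.0582). Pprc1, a coactivator related to PGC-1, fell by 1.02 in F/F_Diff and had a log2 fold change of 1.27 in PgrKO_Diff against F/F_Diff. Of 19 genes of the TCA cycle, 1 rose and 1 fell in F/F_Diff, with the mitochondrial isocitrate dehydrogenase Idh2 at -1.60, and 1 was higher and 2 lower in PgrKO_Diff against F/F_Diff. Of 25 protein import genes, 1 rose and 1 fell in F/F_Diff, and 3 were lower in PgrKO_Diff against F/F_Diff. Among all genes tested, the shares were 12.4% called higher and 6.89% called lower in F/F_Diff, and 11.7% and 15.4% in PgrKO_Diff against F/F_Diff.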

How the data were processed

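RNA of 10 organoid libraries was sequenced in paired ends. The authors deposited FPKM values in 1 table of 54151 symbols, normalized to exon length and to a depth factor of each library that differed from its reads. The submitters' processing notes name HISAT2, edgeR and mm10, and the study's methods name Tophat2. Which of these made the table, the versions, the strandedness and the treatment of reads with several matches are not given in the sources used here. At least 99.99% of the values came out as whole reads within 0.01 read, which gave the depths.

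Groups were taken from the labels. FPKM values were tested as log2(FPKM + 1) with limma 3.58.1 (R 4.3.3, trend in the prior variance, 2-sided), in 1 fit of all 10 libraries, over genes that averaged 1 FPKM or more in any group, with Benjamini-Hochberg adjustment. The fit was tested on simulated data. Counting error was not modelled beside the spread between libraries.

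Members, lists and tests were chosen with earlier results of these data known. Members are named where they are encoded in the mitochondrial genome, are among the up to 10 nuclear members with the largest change among those called in a comparison, are among the 5 with the highest mean, belong to complex II, are Cyc1, or have tissue forms (Cox4i, Cox6a, Cox6b, Cox7a, Cox7b, Cox8, Ndufa4 and Atp5g). Others were named after their values were seen. Copies were sought with blastn 2.17.0 among GENCODE M21 transcripts, without matches on chromosome 18, and promoters were taken from RefSeq (GRCm38.p6). Figures used matplotlib 3.10.9.

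Alternatives were quantile, median-ratio and nuclear-gene scaling, a pseudocount of 0.1, no filter, a mean of at least 5 FPKM, an adjusted p under 0.1, other sets of libraries, a replicate block and each library left out. A voom fit on the recovered reads, a prior variance without a trend and a fit without PgrKO_Con 2 and PgrKO_Diff 2 were added after seeing the data.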

Additional observations from a re-analysis of the deposited data

How the results depend on the processing

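The count of 2 members called in PgrKO_Diff against F/F_Diff became 6 at an adjusted p under 0.1, 5 with median-ratio scaling, 1 without a filter, 3 with a mean of at least 5 FPKM, 3 without the AdKO libraries and 1 with only the libraries compared (limma). Of the alternatives added after seeing the data, voom called 5 (Atp5s, Cox6b2, Ndufab1, Ndufs3 and Ndufs7), the prior variance without a trend 1 (Cox6b2) and the fit without PgrKO_Con 2 and PgrKO_Diff 2 1, which was Ndufa5 called higher, with no member called lower. Leaving out 1 library at a time gave 1 to 21, with 21 without PgrKO_Diff 1 (20 lower, and Cox4i2, which is below the filter otherwise and entered only through its 1.30 FPKM in PgrKO_Diff 2, higher), 3 without PgrKO_Diff 2 and 1 without each of the other 6. Cox6b2 was called in 19 of 20 alternatives (log2 fold change -3.42 to -2.06, adjusted p from 0.00328 to 0.0513) and Ndufs7 in 8 of 20 (-0.92 to -0.50, adjusted p from 0.0212 to 0.169).

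For F/F_Diff against F/F_Con, the count of 0 became 3 with only the libraries compared (Atp5s, Cox7a1 and Ndufa1) and 1 without PgrKO_Con 2 and PgrKO_Diff 2 (Ndufa1), and it was 0 to 3 with 1 library left out, with 3 without either PgrKO_Diff library. It became 1 at an adjusted p under 0.1 in PgrKO_Con against F/F_Con and 1 in AdKO_Diff against F/F_Diff. Median-ratio scaling moved the median of all genes in PgrKO_Diff against F/F_Diff from 0.07 to -0.003. Over all genes, voom called 197 against 98 in PgrKO_Con against F/F_Con, 4 against 8 in AdKO_Con against F/F_Con, 1 against 975 in AdKO_Diff against F/F_Diff and 0 against 697 for the difference between responses. Among the values of single named genes, 4941 kept their call and, where not called, moved by less than 1 standard error, 177 that were not called moved further, 7 gained the call, 13 lost it and 0 called values changed direction. Why the counts moved was not tested. No fit of only the libraries compared was possible for AdKO_Diff against AdKO_Con, which leaves no spread.

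With the replicate number as a block, 1 member was called in PgrKO_Diff against F/F_Diff (Ndufs7 had adjusted p = 0.0501 from limma) and 0 in each other comparison. Over all genes the block gave 2434 calls against 3055 in F/F_Diff against F/F_Con, 2 against 98 in PgrKO_Con against F/F_Con, 3790 against 4289 in PgrKO_Diff against F/F_Diff, 0 against 975 in AdKO_Diff against F/F_Diff and 0 against 697 for the difference between responses. Deviations of libraries with the same number correlated over all genes with r = 0.528 between PgrKO_Con and PgrKO_Diff and with r from -0.171 to -0.0381 between the other groups, and no source says that a number marks a mouse, so the block was not used for the main values. Equal-numbered PgrKO libraries were alike in BC002163 and in the leukocyte markers, and whether they came from the same mouse is not known. With 1 or 2 libraries per group, changes of over 2 standard errors could go uncalled, as that of Ndufa1 did in F/F_Diff against F/F_Con (0.96, standard error 0.39).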
